A study of Mus musculus with 10 samples.

Results

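Atrial and ventricular heart muscle build the same contractile machinery from different gene products, and 4 such pairs were followed here in hearts of mice that lack Ft1. The 8 genes are the atrial forms Myl4, Myl7, Sln and Mybphl and the ventricular forms Myl3, Myl2, Pln and Mybpc3. They were chosen by name, with their fold changes in these same tables already known, so those fold changes are given below as a description. Counts of members called are printed beside the share of all genes called, and nothing is read from them. All 8 were found, of 17487 genes in the largest of the deposited tables and 16876 in the smallest. Each of the 8 has a fold change and a p in every table, so no member was lost to a filter. The series holds RNA sequencing of hearts from male mice at 1 week of age, with 4 Ft1sm22ko, 3 Ft1ko and 3 WT animals. Ft1sm22ko mice carry a floxed Ft1 allele and the sm22-cre transgene, in which the Tagln promoter drives Cre in smooth muscle. Ft1ko mice come from the same floxed allele recombined by CMV-cre, and lack Ft1 throughout the body. WT mice carry no deletion. The labels name no treatment in any group. Whether the atria were kept in each dissection is not given in the sources used here.

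In cardiac muscle, 2 light chains wrap the neck of each myosin head. The essential light chain stiffens the lever arm, and the regulatory light chain is a phosphorylation target that tunes how readily heads reach for actin. Calcium is returned to its store by the pump SERCA, which small membrane peptides restrain. Myosin binding protein C lies along the thick filament and slows the cycling of heads. In the mouse, Myl4, Myl7 and Sln mark atrial muscle after birth, while Myl3, Myl2 and Pln are richest in the ventricle.

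The places of the genes below are those of GENCODE M21 on the mouse build GRCm38. Myl4, the atrial essential light chain, lies at chr11:104550663-104595753 on the plus strand, and Myl3, the ventricular form, at chr9:110741861-110769798 on the plus strand. Myl7, the atrial regulatory light chain, lies at chr11:5896637-5898782 on the minus strand, and Myl2, the ventricular form, at chr5:122100951-122113472 on the plus strand. Sln encodes sarcolipin, an inhibitor of SERCA in the atrium, and lies at chr9:53850164-53854560 on the plus strand. Pln encodes phospholamban, which inhibits the same pump until it is phosphorylated, and lies at chr10:53337667-53345987 on the plus strand. Mybphl, a shorter relative of myosin binding protein C, lies at chr3:108364911-108380057 on the plus strand. Mybpc3, the cardiac myosin binding protein C, lies at chr2:91118144-91136516 on the plus strand and is made in both chambers, so that this pair is a contrast of an atrial gene with a general cardiac gene. No member overlaps a gene on its own strand. Myl4, Mybphl, Myl3, Myl2 and Pln overlap at least 1 gene on the other strand. The library kit keeps strand, but whether the counting used it is not given in the sources used here.

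The bases just before the start site are shown for an atrial and a ventricular gene that hold the same motif, and for the pair of myosin binding protein genes, so that windows of members that moved in opposite directions can be read side by side. Each is the RefSeq sequence of GRCm38.p6 over the 150 bases before the annotated start, on the gene's strand, and capitals mark motif matches. The windows are chr11:5898783-5898932 for Myl7, chr9:110763528-110763677 for Myl3, chr3:108364761-108364910 for Mybphl and chr2:91117994-91118143 for Mybpc3.
Myl7: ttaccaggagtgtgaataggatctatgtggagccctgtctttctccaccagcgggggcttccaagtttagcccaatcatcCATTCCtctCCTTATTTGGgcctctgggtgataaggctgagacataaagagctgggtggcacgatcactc
Myl3: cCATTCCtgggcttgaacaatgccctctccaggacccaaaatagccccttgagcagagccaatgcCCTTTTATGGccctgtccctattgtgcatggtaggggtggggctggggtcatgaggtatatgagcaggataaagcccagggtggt
Mybphl: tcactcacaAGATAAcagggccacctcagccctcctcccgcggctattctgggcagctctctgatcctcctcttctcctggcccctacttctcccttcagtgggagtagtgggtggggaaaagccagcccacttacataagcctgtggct
Mybpc3: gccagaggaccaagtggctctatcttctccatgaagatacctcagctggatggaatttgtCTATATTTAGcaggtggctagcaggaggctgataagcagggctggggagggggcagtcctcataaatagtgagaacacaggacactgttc

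RefSeq windows were matched for 7 of the 8 members, with 8 windows in all because Myl2 has a pair of them. Some RefSeq starts are not the GENCODE gene starts given above. The Myl2 windows end at chr5:122092723 and chr5:122093188, well before the GENCODE start at 122100951. The Myl3 window lies inside the GENCODE gene. Matches in these genes, or their absence, do not describe the GENCODE start. The 250 bases before each start were searched on both strands for 5 motifs of cardiac regulators, which were picked after an earlier scan of these windows, and the same search was run over all 32851 windows of the table. The CArG box, which serum response factor binds, matched in Myl7 from 61 to 52 bases before the start and in Myl3 from 85 to 76 bases before it, and in 1.47% of all windows. It is thus shared by an atrial and a ventricular light chain gene. The M-CAT motif CATTCC, bound by TEAD factors, matched in the same 2 genes, where it does not overlap the CArG box, and in 12.6% of all windows. The MEF2 motif matched in Mybpc3 from 90 to 81 bases before the start, and in 2.92% of all windows. The GATA motif AGATAA matched in Mybphl, Myl2 and Pln, and in 9.99% of all windows. The T-box motif CACACCT matched in no member, against 5.10% of all windows. A match describes letters in these windows only.

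The values come from the authors' deposited tables, each comparing 2 groups, in which a gene has its mean normalized count over the hearts of both groups, a log2 fold change with a standard error (SE) and a p. Group means were worked out here from the mean, the fold change and the number of hearts, and have no error of their own. Values per heart were not analysed here, so the spread between hearts enters only through the SE, the overlap between groups cannot be read, and library depth is unknown. The labels name the hearts as separate replicates, and p-values measure the spread between them. Aktip, the gene that encodes Ft1, fell by 1.21 on the log2 scale in Ft1sm22ko (SE 0.27, Benjamini-Hochberg adjusted p = 1.07e-04 from the deposited Wald p) and by 1.93 in Ft1ko (SE 0.27, adjusted p = 5.08e-11), which goes with the labels of both mutants. Over all genes with a p, the median log2 fold change stood at 0.06 in Ft1sm22ko over WT, 0.13 in Ft1ko over WT and -0.05 in Ft1sm22ko over Ft1ko. The same group appears in 2 tables, which were normalized separately. After scaling by the median gene, the means of the 8 members in a group agreed between its tables to a ratio of 0.954 to 1.01. The comparisons of the mutants with WT share the WT hearts.

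All 4 atrial forms were abundant in both mutants and scarce in WT hearts. Myl7 had a mean of 16445 normalized counts in Ft1sm22ko, against 75.4 in WT in the same table. In the other table with WT it had 18782 in Ft1ko, against 55.6 in WT. These are log2 fold changes of 7.77 (SE 0.47, 95% interval 6.86 to 8.68) in Ft1sm22ko and 8.40 (SE 0.46, interval 7.50 to 9.30) in Ft1ko, which in Ft1ko is a 338-fold difference. Myl4 had 13347 normalized counts in Ft1sm22ko, against 174.0 in WT, and 11648 in Ft1ko, against 128.4 in WT. Its log2 fold changes were 6.26 (SE 0.44, interval 5.40 to 7.12) in Ft1sm22ko and 6.50 (SE 0.45, interval 5.61 to 7.39) in Ft1ko. In each table with WT, the atrial light chains were thus between 76.7-fold and 338-fold higher in the mutant.

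Sln and Mybphl, the less abundant atrial forms, were at a few normalized counts in WT. Sln had 2431 normalized counts in Ft1sm22ko, against 5.99 in WT, and 970.6 in Ft1ko, against 4.66 in WT. Its log2 fold change was 8.66 in Ft1sm22ko, the highest of any member in any table, with an SE of 1.01 and an interval of 6.67 to 10.65. In Ft1ko it was 7.70 (SE 0.62, interval 6.49 to 8.92). Mybphl had 1333 normalized counts in Ft1sm22ko, against 13.1 in WT, and 971.0 in Ft1ko, against 9.68 in WT. Its log2 fold changes of 6.67 (SE 0.60) in Ft1sm22ko and 6.65 (SE 0.52) in Ft1ko lay closest together of the 4 atrial forms. The median of the 4 was 7.22 in Ft1sm22ko and 7.18 in Ft1ko. All 4 passed a Benjamini-Hochberg adjusted p under 0.05 as higher in each mutant, where 16.2% of all genes tested were called higher in Ft1sm22ko and 19.7% in Ft1ko. These counts follow from how the members were chosen.

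The ventricular forms were lower than in WT, by similar amounts for all 4 in Ft1ko and by unequal, smaller amounts in Ft1sm22ko. Myl2, the most abundant member, had 106343 normalized counts in Ft1sm22ko, against 192424 in WT, and 22872 in Ft1ko, against 143393 in WT. Its log2 fold change was -0.86 in Ft1sm22ko (SE 0.32, interval -1.49 to -0.22). In Ft1ko it was -2.65, with an SE of 1.40 and an interval of -5.39 to 0.09 that includes 0. Myl3 had 73482 normalized counts in Ft1sm22ko, against 94741 in WT, and 12031 in Ft1ko, against 70763 in WT. Its log2 fold change was -0.37 in Ft1sm22ko (SE 0.43, interval -1.20 to 0.47) and -2.56 in Ft1ko (SE 0.83, interval -4.18 to -0.93). The regulatory and essential ventricular chains were thus near the same fold in Ft1ko, with a much wider error for Myl2.

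Pln had 39167 normalized counts in Ft1sm22ko, against 42702 in WT, a log2 fold change of -0.12 (SE 0.41, interval -0.94 to 0.69) and the smallest of the members. In Ft1ko it had 5216, against 31875 in WT, a log2 fold change of -2.61 (SE 0.69, interval -3.96 to -1.26). Mybpc3 had 35282 normalized counts in Ft1sm22ko, against 90636 in WT, and 10099 in Ft1ko, against 66834 in WT. It had the lowest fold change of the ventricular arm in each mutant, -1.36 (SE 0.37, interval -2.09 to -0.63) in Ft1sm22ko and -2.73 (SE 0.57, interval -3.84 to -1.62) in Ft1ko. The median of the 4 was -0.61 in Ft1sm22ko and -2.63 in Ft1ko, and the range in Ft1ko was only -2.73 to -2.56. Myl2 and Mybpc3 were called lower in Ft1sm22ko, beside 16.0% of all genes tested, and Myl3, Pln and Mybpc3 in Ft1ko, beside 16.1%. In bulk tissue, fewer cells of a type and less RNA per cell cannot be told apart, which holds for every level given here.

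**Figure D1:**
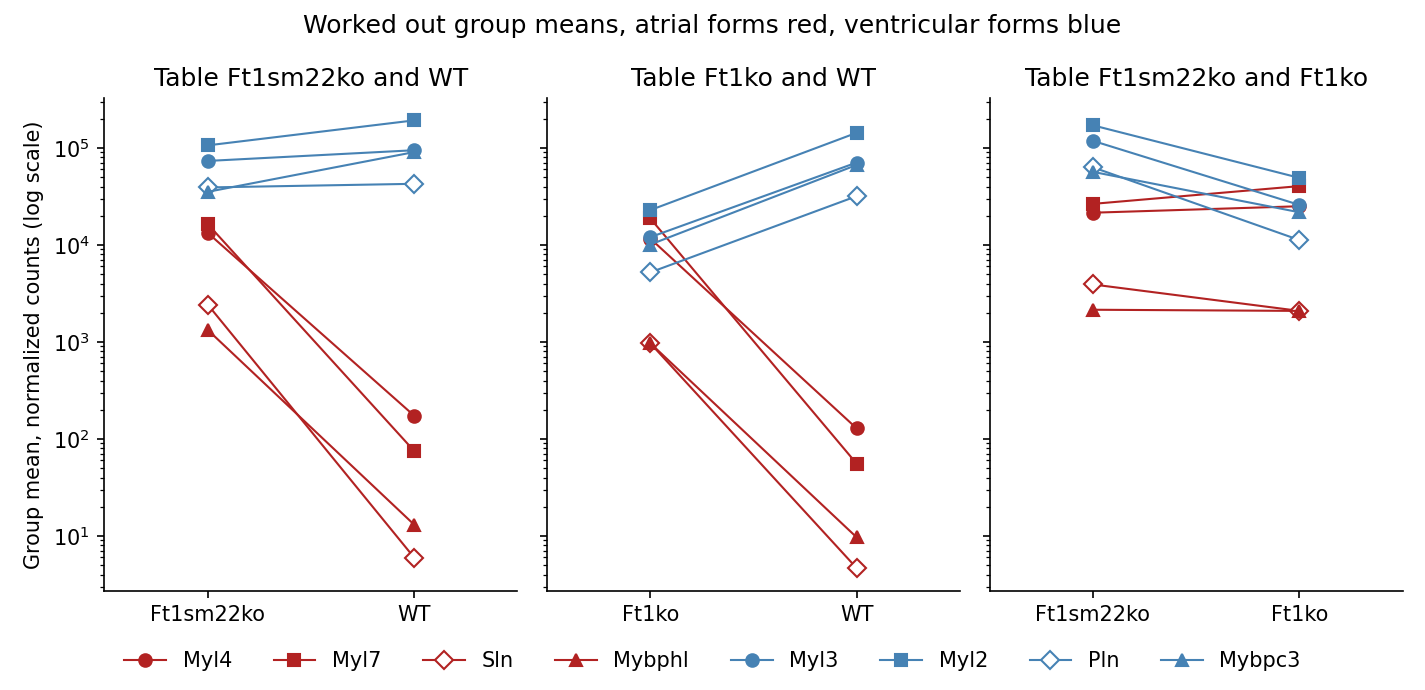
Worked out group means of the 8 members in normalized counts on a log axis, with 1 panel per deposited table and the groups of that table along the x axis. Points are group means without error bars, and lines join the means of a gene. In the tables with WT, the red atrial forms lie between 970.6 and 18782 in the mutants and between 4.66 and 174.0 in WT.

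**Figure D2:**
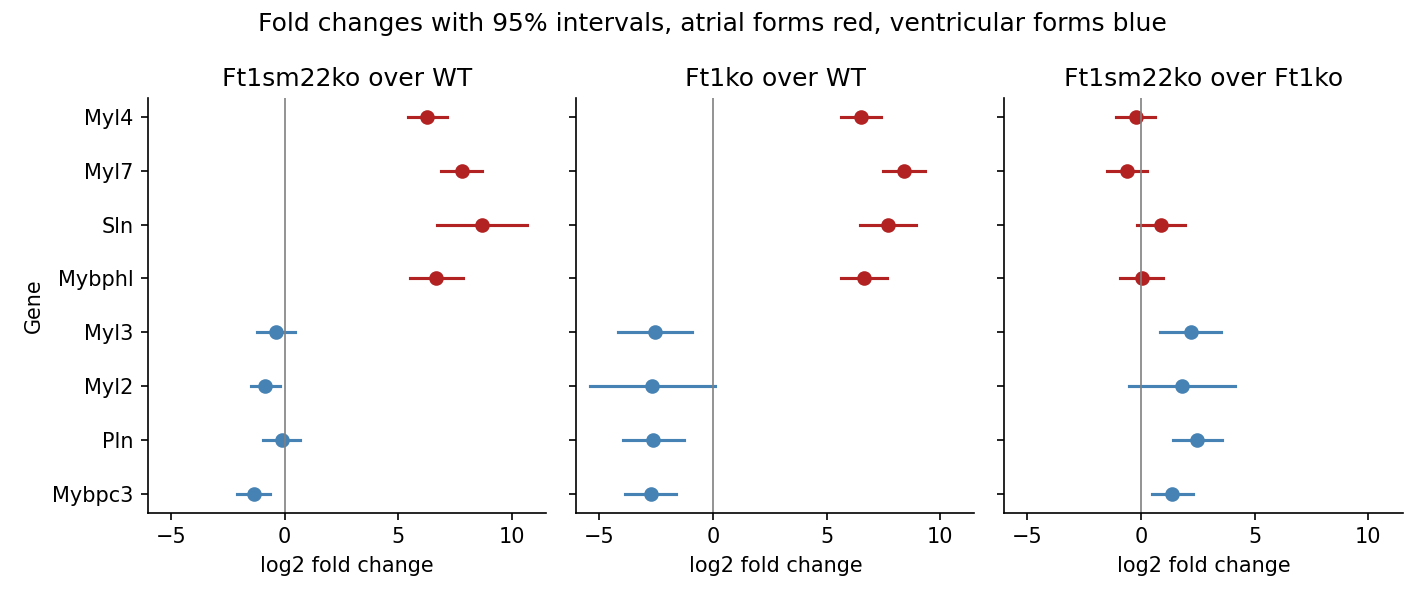
Log2 fold change of each member in each comparison, with bars for the 95% interval from the deposited standard error. Atrial forms are far to the right of 0 against WT, and the ventricular intervals are widest for Myl2 where Ft1ko is compared.

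Set directly against each other, the mutants differed in the ventricular arm, while the intervals of all 4 atrial forms included 0. Pln had 63191 normalized counts in Ft1sm22ko and 11245 in Ft1ko, a log2 fold change of 2.49 (SE 0.55, interval 1.41 to 3.57). Myl3 had 118423 in Ft1sm22ko and 25887 in Ft1ko, a log2 fold change of 2.19 (SE 0.68, interval 0.86 to 3.53). Mybpc3 had 56704 in Ft1sm22ko and 21734 in Ft1ko, a log2 fold change of 1.38 (SE 0.46, interval 0.49 to 2.28). These 3 were called higher in Ft1sm22ko, beside 10.8% of all genes tested, and no member was called lower, beside 9.00%. Myl2 was at 171200 in Ft1sm22ko and 49190 in Ft1ko, and its log2 fold change of 1.80 had an SE of 1.19 and an interval of -0.53 to 4.13.

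Among atrial forms, Myl7 had 26516 normalized counts in Ft1sm22ko and 40431 in Ft1ko, a log2 fold change of -0.61 (SE 0.44, interval -1.48 to 0.26). Myl4 had 21502 in Ft1sm22ko and 25071 in Ft1ko, with a log2 fold change of -0.22 (SE 0.44, interval -1.08 to 0.64). Sln ran the other way, with 3916 in Ft1sm22ko and 2091 in Ft1ko, a log2 fold change of 0.91 (SE 0.54, interval -0.15 to 1.96). Mybphl was at 2149 in Ft1sm22ko and 2090 in Ft1ko, with a log2 fold change of 0.04 and an interval of -0.92 to 1.00. These intervals still allow differences of about a log2 unit in Myl4 and Mybphl. For Myl7 they reach -1.48 and for Sln 1.96.

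The share of the atrial form within each pair was computed from group means per kb of the principal transcript. Myl7 made up 18.9% of Myl7 and Myl2 together in Ft1sm22ko, 55.3% in Ft1ko and 0.0583% to 0.0590% in WT. Myl4 made up 15.3% of Myl4 and Myl3 in Ft1sm22ko, 49.0% in Ft1ko and 0.180% to 0.182% in WT. By this length the atrial and ventricular light chains of Ft1ko were near parity, with no error on these shares. Sln made up 9.90% of Sln and Pln in Ft1sm22ko, 24.8% in Ft1ko and 0.0249% to 0.0259% in WT. Mybphl made up 11.0% of Mybphl and Mybpc3 in Ft1sm22ko, 23.9% in Ft1ko and 0.0471% to 0.0472% in WT. All 4 pairs kept the order of groups, Ft1ko over Ft1sm22ko over WT, and the tables of a group gave nearly the same share. The level of a share depends on the length used. With the length of all exons joined, Myl4 was at 7.41% in Ft1sm22ko and 29.9% in Ft1ko, and Myl7 at 33.8% in Ft1sm22ko and 73.1% in Ft1ko, with the order of the groups as before.

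**Figure D3:**
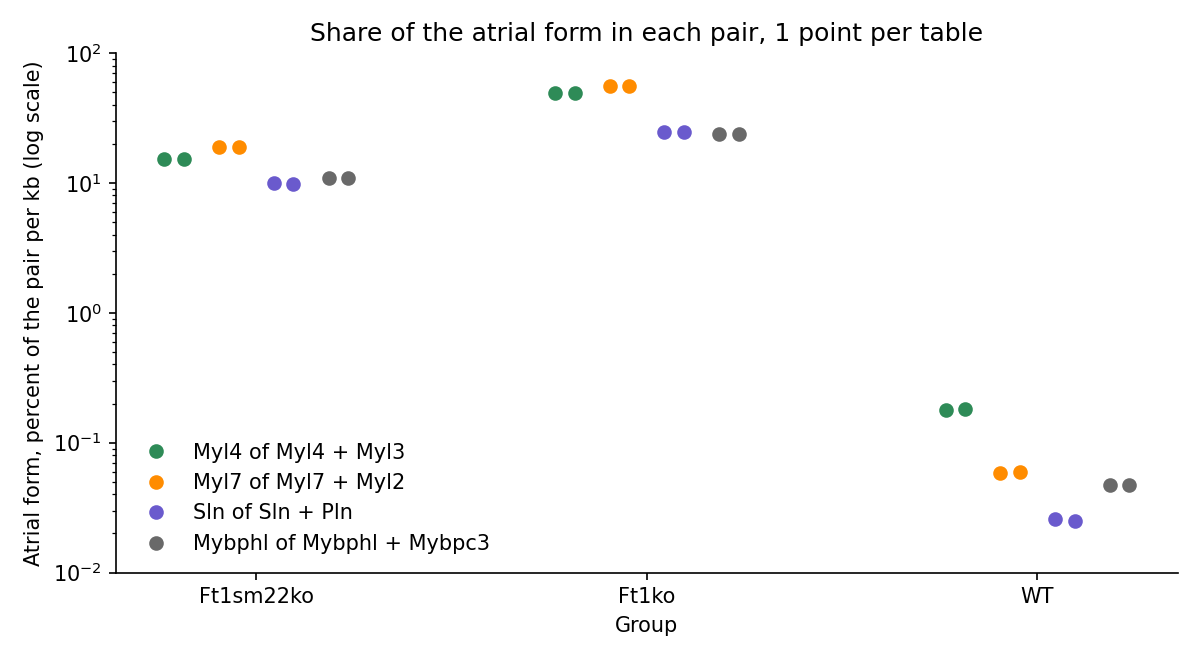
Atrial form as a percent of its pair, from group means per kb on a log axis, by group, with 1 point for each of the 2 tables that hold the group and no error bars. Shares are 9.90% to 18.9% in Ft1sm22ko, 23.9% to 55.3% in Ft1ko and below 0.2% in WT.

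The shift of a pair is the log2 fold change of its atrial form minus that of its ventricular form, in which a scaling factor common to a library cancels. The SE given here treats the forms as independent. In Ft1sm22ko over WT the shift was 6.63 for Myl4 and Myl3 (SE 0.61), 8.62 for Myl7 and Myl2 (SE 0.57), 8.03 for Mybphl and Mybpc3 (SE 0.71) and 8.79 for Sln and Pln (SE 1.10). In Ft1ko over WT it was 9.06 for Myl4 and Myl3 (SE 0.95), 11.05 for Myl7 and Myl2 (SE 1.47), 9.38 for Mybphl and Mybpc3 (SE 0.77) and 10.31 for Sln and Pln (SE 0.93). Most of each shift was the atrial term. Between the mutants the shift was negative in all 4 pairs, with a median of -2.00 and a range of -2.42 to -1.34. For Myl7 and Myl2 its interval, -4.89 to 0.08, included 0. The other pairs had intervals below 0, which for Mybphl and Mybpc3 reached -0.03.

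The order of the members by level per kb also differed between groups. In the table with WT, Ft1sm22ko hearts had Myl2 highest at 119621 normalized counts per kb, then Myl3 at 78422, Myl7 at 27873, Pln at 16781, Myl4 at 14154 and Mybpc3 at 8475, with Sln at 1844 and Mybphl at 1045. In Ft1ko the order began with Myl7 at 31835 per kb, followed by Myl2 at 25727, Myl3 at 12840, Myl4 at 12352, Mybpc3 at 2426 and Pln at 2235, with Mybphl at 761.0 and Sln at 736.4. In the WT hearts of that table every ventricular form, from Myl2 at 161297 per kb to Pln at 13657, was above every atrial form, from Myl4 at 136.2 to Sln at 3.54. In the absence of an error on these levels, near neighbours such as Myl3 and Myl4 in Ft1ko are not ranked apart.

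Among other light chains 1 gene rose, and among heavy chains 2 fell, in each mutant, beside the backgrounds given above. Of the 7 other light chain genes tested, Myl9, the smooth muscle regulatory light chain, rose in both mutants, by 2.27 on the log2 scale in Ft1sm22ko (SE 0.26) and by 2.71 in Ft1ko (SE 0.37), and no other passed the test against WT (2 higher and none lower in each mutant at an unadjusted p under 0.05). The median log2 fold change of the list was 0.06 in Ft1sm22ko and 0.58 in Ft1ko. Myh6, the main heavy chain of the adult mouse heart in both chambers, fell by 1.44 in Ft1sm22ko, to 334643 normalized counts, against 910933 in WT (SE 0.24, adjusted p = 8.21e-08). It fell by 2.37 in Ft1ko, to 130614, against 676574 in WT (SE 0.44, adjusted p = 1.26e-06). Myh7b, a further heavy chain gene, fell by 3.18 in Ft1sm22ko and fell by 4.05 in Ft1ko. Mybph, Mybpc1 and Mybpc2, the relatives of the myosin binding pair, gave no call in any of the 3 comparisons at the deposited Wald p with Benjamini-Hochberg adjustment, and 1 at an unadjusted p under 0.05, Mybpc2 with -1.13 in Ft1ko. Mybph and Mybpc1 had group means of 2.87 to 11.1 normalized counts throughout.

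Genes that phosphorylate or dephosphorylate the regulatory light chain moved in different directions. Of 8 tested, 1 rose and 2 fell in Ft1sm22ko, and 1 rose and 3 fell in Ft1ko, beside the backgrounds given above. Mylk3, the cardiac myosin light chain kinase, rose by 0.86 in Ft1sm22ko (SE 0.19, adjusted p = 1.02e-04), and had -0.41 in Ft1ko (SE 0.32, adjusted p = 0.318). Mylk, the kinase of smooth muscle, rose by 1.77 in Ft1ko (SE 0.61), and had -0.17 in Ft1sm22ko (SE 0.20). Ppp1r12c, a myosin phosphatase subunit, fell by 1.72 in Ft1sm22ko and by 1.45 in Ft1ko. Mylk4 and Ppp1r12b fell in Ft1ko, by 1.44 and 1.34.

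Genes around SERCA, the pump that Sln and Pln share, moved in both directions. Of 18 tested in this list, 2 rose and 4 fell in Ft1sm22ko, where 16.2% of all genes tested were called higher and 16.0% lower. In Ft1ko 2 rose and 7 fell, where 19.7% of all genes were called higher and 16.1% lower. The list medians were -0.36 in Ft1sm22ko and -0.56 in Ft1ko. With Bonferroni adjustment none of the 18 was called in Ft1sm22ko, and 1 was called lower in Ft1ko. Atp2a2, which encodes the cardiac pump itself and is named here after its values were seen, had 71828 normalized counts in Ft1sm22ko, against 70239 in WT, a log2 fold change of 0.03 (SE 0.28). It fell by 1.22 in Ft1ko, to 22382, against 52261 in WT (SE 0.33, adjusted p = 0.00150). In Ft1sm22ko hearts Pln and the pump were thus each near their WT level. Hrc, which binds calcium in the store, fell by 1.67 in Ft1sm22ko and by 2.75 in Ft1ko. S100a1, a calcium sensor that raises pump activity, fell by 1.22 in Ft1sm22ko and by 2.44 in Ft1ko. Ppp1r1a, an inhibitor of the phosphatase that acts on Pln, rose by 1.31 in Ft1sm22ko and by 1.66 in Ft1ko, and Pde3a, a phosphodiesterase, rose by 1.13 in Ft1sm22ko and 0.99 in Ft1ko. Between the mutants 6 of the 18 were higher in Ft1sm22ko and 1, Atp2a3, was lower, beside 10.8% and 9.00% of all genes tested.

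Atrial genes outside the pairs were split. Of 14, 8 rose and 2 fell in Ft1sm22ko, and 8 rose and 2 fell in Ft1ko, beside the backgrounds given above. The median log2 fold change was 1.16 in Ft1sm22ko and 1.72 in Ft1ko, well under that of the atrial members. Nppa, the atrial natriuretic peptide gene, rose by 5.30 in Ft1sm22ko, to 37353 normalized counts, against 947.0 in WT (SE 0.38, adjusted p = 1.25e-40), and by 4.85 in Ft1ko, to 20283, against 701.2 in WT (SE 0.42, adjusted p = 1.04e-27). Dkk3, a secreted protein that is richer in atrial muscle, rose by 4.03 in Ft1sm22ko and by 4.45 in Ft1ko. Pam, an atrial granule enzyme that amidates peptides, rose by 1.92 in Ft1sm22ko and by 1.78 in Ft1ko. Tbx5, a transcription factor needed for atrial development, rose by 0.77 in Ft1sm22ko and by 1.67 in Ft1ko. Against these, the potassium channel gene Kcnk3 fell by 1.05 in Ft1sm22ko and by 1.71 in Ft1ko, Kcna5, another such channel gene, fell by 2.23 in Ft1ko, and Nr2f1, a nuclear receptor gene, fell by 1.29 in Ft1sm22ko.

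Ventricular genes outside the pairs lay on both sides of 0, while sarcomere genes of both chambers were lower or not called. Of the ventricular list, none rose in either mutant at the deposited Wald p with Benjamini-Hochberg adjustment (1 in Ft1sm22ko and 0 in Ft1ko at an unadjusted p under 0.05). Called lower were 3 of 8 tested in Ft1sm22ko, beside 16.0% of all genes, and 3 of 10 in Ft1ko, beside 16.1%. The list median was -0.04 in Ft1sm22ko and -0.77 in Ft1ko, beside 0.06 and 0.13 over all genes. Above 0 in both mutants, but not called, were Hey2 (0.84 in Ft1sm22ko and 0.36 in Ft1ko) and Irx5 (0.22 and 0.62). Myh7 and Hand1 were also above 0, but have no p in Ft1sm22ko over WT and were not called in Ft1ko. Myh7 had 2.35 in Ft1sm22ko (SE 1.60) and 1.37 in Ft1ko (SE 1.20). Hand1 had 2.21 in Ft1sm22ko (SE 2.21) and 0.65 in Ft1ko (SE 1.81), with group means of only 1.19 to 7.28 normalized counts. Kcnip2, a subunit of the transient outward potassium current, fell by 1.16 in Ft1sm22ko and by 3.34 in Ft1ko, and Kcnd2, a channel of the same current, fell by 1.30 in Ft1sm22ko and fell by 3.32 in Ft1ko. Irx4, a transcription factor of the ventricle, fell by 1.24 in Ft1sm22ko (SE 0.32), and in Ft1ko had -2.34 with an SE of 1.27 (adjusted p = 0.141). Its error, like that of Myl2, was wide only where Ft1ko hearts entered. Of 12 sarcomere genes that both chambers use, 10 fell in Ft1sm22ko and 12 in Ft1ko, beside the same backgrounds. Their medians were -1.32 in Ft1sm22ko and -2.52 in Ft1ko. Tnnt2, cardiac troponin T, fell by 1.73 in Ft1sm22ko and fell by 2.52 in Ft1ko. Tcap, which caps titin at the Z-disc, fell by 2.13 in Ft1sm22ko and fell by 4.22 in Ft1ko.

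Set against the median of 6 of these genes of both chambers, the ventricular median was 0.66 in Ft1sm22ko and -0.43 in Ft1ko, and in Ft1sm22ko 3 of the 4 forms turned above 0, Myl2 to 0.42, Myl3 to 0.90 and Pln to 1.15, with Mybpc3 at -0.09. The atrial median became 8.49 in Ft1sm22ko and 9.37 in Ft1ko. On this scale the ventricular medians lay within 1 log2 unit of those genes in both mutants.

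**Figure D4:**
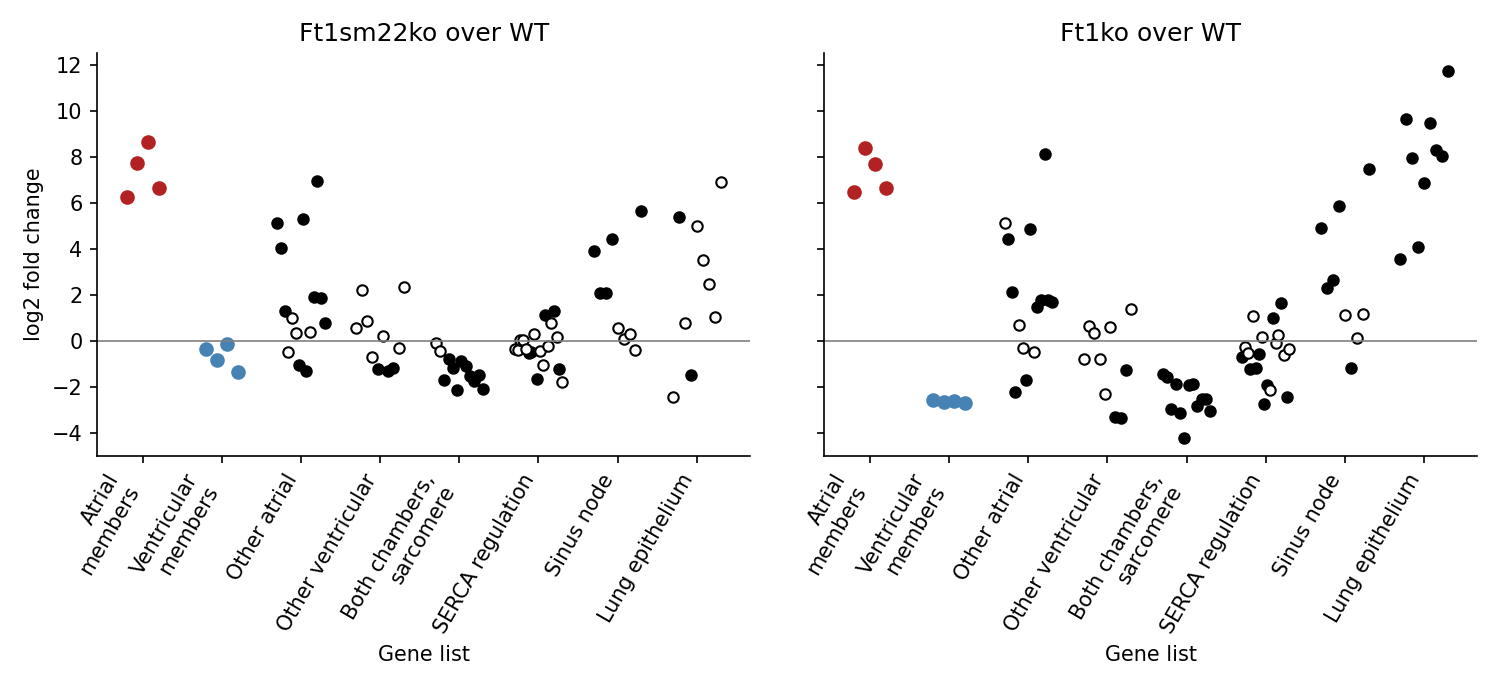
Log2 fold change over WT of the atrial and ventricular members (red and blue) and of the genes of 6 lists (black), with 1 point per gene. Filled black points passed a Benjamini-Hochberg adjusted p under 0.05, open ones did not or have no p. The 12 sarcomere genes of both chambers lie below 0 in both panels, and other atrial genes spread from about the level of the atrial members to below 0.

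Markers of the sinus node, which sits in the atrial wall, and of tissues next to the heart also differed between groups. Their counts stand beside the backgrounds given above. Of 9 sinus node genes, 5 rose and none fell in Ft1sm22ko (0 lower at an unadjusted p under 0.05 of the deposited Wald test), and 5 rose and 1 fell in Ft1ko, with summed means of 2500 normalized counts in Ft1sm22ko, against 1997 in WT, and 2192 in Ft1ko, against 1484 in WT. Hcn4, the main pacemaker channel, rose by 2.09 in Ft1sm22ko and by 2.64 in Ft1ko. Cacna2d2, a calcium channel subunit, rose by 3.93 in Ft1sm22ko and 4.90 in Ft1ko, and Vsnl1, a calcium sensor, by 5.66 in Ft1sm22ko and 7.50 in Ft1ko. Smoc2 fell by 1.19 in Ft1ko. The 9 lung epithelium genes summed to 3881 normalized counts in Ft1sm22ko, against 644.1 in WT, and to 50022 in Ft1ko, against 469.8 in WT. All 9 were called higher in Ft1ko. In Ft1sm22ko only Aqp5 (higher) and Napsa (lower) have a p. Most of the lung sum there was Scgb1a1, with 3210 normalized counts, against 99.95 in WT. Ager was lower, with 58.8 in Ft1sm22ko, against 319.9 in WT. The 9 thymocyte genes, which have no p where Ft1ko enters, summed to 5382 in Ft1ko, against 79.2 in WT, while 8 of them summed to 161.5 in Ft1sm22ko, against 107.1 in WT. In the direct table the lung genes summed to 6095 in Ft1sm22ko, of which Scgb1a1 made 5040, and to 108396 in Ft1ko. The thymocyte genes summed to 262.1 in Ft1sm22ko and 11580 in Ft1ko. Sums over genes without a p may rest on 1 heart of a group, which cannot be read without values per heart. The part of these tissues in the members' values was not tested.

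The counts of the next lists stand beside 16.2% of all genes called higher and 16.0% lower in Ft1sm22ko. In Ft1ko these shares were 19.7% and 16.1%. Adipocyte genes gave 2 higher of 7 in Ft1sm22ko and 4 higher of 7 in Ft1ko, with median log2 fold changes of 3.53 in Ft1sm22ko and 4.56 in Ft1ko. All 3 red cell genes in the tables were higher in each mutant. Fibroblast genes gave 7 higher of 7 in Ft1sm22ko and 5 higher in Ft1ko, led by collagens such as Col3a1, which rose by 2.05 in Ft1sm22ko and 1.80 in Ft1ko. Smooth muscle genes gave 2 higher and 1 lower of 7 in Ft1sm22ko, and 4 higher and 2 lower in Ft1ko. Tagln, whose promoter drives Cre in Ft1sm22ko, rose by 0.90 in Ft1sm22ko and by 2.04 in Ft1ko. Endothelial genes gave 3 higher and 1 lower of 7 in Ft1sm22ko, and 1 higher in Ft1ko. Skeletal muscle genes gave no call of 8 tested in Ft1sm22ko (1 lower at an unadjusted p under 0.05 of the deposited Wald test) and 1 lower of 6 in Ft1ko. A list of 7 abundant RNAs, noncoding except for that of the protein-coding gene Lars2, was picked in earlier work after values of these data were seen. The list summed to 372585 normalized counts in Ft1sm22ko, against 8249320 in WT, and to 248759 in Ft1ko, against 6048360 in WT. Most of it was Rn45s, the ribosomal precursor RNA, at 324165 in Ft1sm22ko, against 7448330 in WT, and at 186896 in Ft1ko, against 5459500 in WT. All 7 were called lower in each mutant, from which nothing is read, given how the list was picked. The part of these RNAs and cell types in the members' values was not tested.

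The genes most like each arm were sought among 1831 other genes whose mean reached 1000 normalized counts in all tables, by the distance of their log2 fold changes in both mutants from the medians of the arm. The nearest to the atrial arm were Scgb1a1, a secreted protein gene of airway cells, at a distance of 2.24 log2 units, Nppa at 3.01, Scgb3a2, also of airway cells, at 3.69, Dkk3 at 4.20 and Tnni1, the slow skeletal troponin I that fetal heart also makes, at 4.75. The airway genes had large errors, as Scgb1a1 had 5.01 with an SE of 2.33 in Ft1sm22ko and 6.87 with an SE of 1.82 in Ft1ko. The ventricular arm had near neighbours. Atp5g1, a subunit of mitochondrial ATP synthase, lay at 0.04 with -0.64 in Ft1sm22ko and -2.60 in Ft1ko, followed by Ndufc1, a subunit of respiratory complex I, at 0.14, 2010107E04Rik at 0.17, the muscle enolase gene Eno3 at 0.18 and Mgst3 at 0.26.

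The precision of the members differed by table. Among genes whose mean reached 1000 normalized counts, the median SE was 0.24 in Ft1sm22ko over WT, 0.34 in Ft1ko over WT and 0.21 between the mutants, and every member lay above it. Some members were themselves below that mean, namely Sln in Ft1ko over WT (487.6) and Mybphl in Ft1ko over WT (490.3) and Ft1sm22ko over WT (767.2). The SE of Myl2 was 0.32 without Ft1ko hearts, and 1.40 and 1.19 with them. The SE of Sln was highest in Ft1sm22ko over WT, at 1.01. Myl3, Pln and Mybpc3 likewise had their lowest SE without Ft1ko hearts, at 0.43, 0.41 and 0.37.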

How the data were processed

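RNA of 4 Ft1sm22ko, 3 Ft1ko and 3 WT hearts was measured at 1 week of age. The authors aligned reads with STAR, counted them per gene and fitted DESeq2 to every pair of groups. The reference is named hg38 by the authors, although the gene symbols are mouse ones, and StringTie and HTSeq are named without versions. Per gene, the deposited mean signal averages normalized counts over the hearts of both groups. The deposited fold change and SE are log2 values. The deposited score is a Wald statistic, from which the 2-sided deposited p-value follows. These columns hold the authors' own comparisons. They were used because the members' contrasts have no other source here, and every fold change, SE and p in the text is the authors' or is computed from theirs. Their adjusted p was not used.

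Fold changes were turned to mutant over WT, or Ft1sm22ko over Ft1ko. The p were adjusted by Benjamini-Hochberg over all genes with a p, which are 16661 for Ft1sm22ko over WT, 16748 for Ft1ko over WT and 17169 between the mutants, at a threshold of 0.05. Intervals are 1.96 SE. The statistic and the p were checked against fold change and SE, and the calls were tested on simulated data. The depth of each library is unknown. Lengths come from GENCODE M21. Python 3.11.15 with pandas 2.3.3 was used.

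The members and lists were chosen with earlier results of these data known. Named genes are the members, Aktip, up to 3 genes with the smallest p per list and mutant, genes that moved against their list, and the 5 nearest in pattern to each arm. Others are Atp2a2, Atp2a3 and Mylk, chosen after their values were seen. Alternatives were Bonferroni adjustment, limits on mean and fold, other scalings and routes through other tables.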

Additional observations from a re-analysis of the deposited data

Results flagged for a closer look

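From the cardiac lists, 37 genes were taken for the smallest p against WT. Of these, 16 differed between the mutants in the direct comparison of Ft1sm22ko with Ft1ko (deposited Wald p, Benjamini-Hochberg adjusted p under 0.05). In that comparison 10.8% of all genes tested were called higher and 9.00% lower. The comparisons with WT hold the same mutant hearts, so nothing is read from this count. The same comparison of the members is given in the report as a description. The values are log2 fold changes of Ft1sm22ko over Ft1ko. In the list of other atrial genes Tbx5 had -0.90, and in that of other ventricular genes Kcnd2 had 2.04, Kcnip2 had 2.19 and Kcnj2 had 0.99. Among light chains and their kinases and phosphatases, Myl6 had -0.51, Mylk4 had 0.82, Mylk3 had 1.28 and Ppp1r12a had -0.66. Of the heavy chains Myh8 had -1.66. Around SERCA, Hrc had 1.09, S100a1 had 1.22 and Camk2d had 0.68. Among sarcomere genes of both chambers Lmod2 had 1.28, Tcap had 2.10 and Ttn had 0.98. Of the sinus node genes Vsnl1 had -1.84.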

How the results depend on the processing

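No paired analysis was possible because the tables hold 1 fold change per gene and no values per heart, and leaving out single hearts could not be run for the same reason. Bonferroni adjustment left 827 genes higher and 677 lower in Ft1ko over WT (3291 and 2695 as reported), 645 and 625 in Ft1sm22ko over WT (2706 and 2661), and 262 and 159 in Ft1sm22ko over Ft1ko (1855 and 1546), and the list genes called were 38 of 83, 30 of 69 and 10 of 47. A mean of at least 100 left 1768 genes higher in Ft1ko over WT. A log2 limit of 1 left 1620 higher and 1455 lower in Ft1sm22ko over WT, and 775 higher and 938 lower in Ft1sm22ko over Ft1ko. Relative to 6 genes of both chambers, the atrial median was 9.37 in Ft1ko over WT, 8.49 in Ft1sm22ko over WT and -1.11 between the mutants, and the ventricular median was -0.43, 0.66 and 0.98. On that scale Myl2 turned to 0.42, Myl3 to 0.90 and Pln to 1.15 in Ft1sm22ko over WT, and Sln to -0.12 and Mybphl to -0.98 in Ft1sm22ko over Ft1ko. Centring on the median of all genes or of genes with a mean of at least 100 moved no member fold change by more than its SE, nor did the indirect route. The indirect route and group means across tables moved no pair shift by more than its SE. Both reuse the counts of the same hearts, so they could hardly differ and say nothing of the spread between hearts.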
